A study of Mus musculus with 8 samples.

Results

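The 43 genes described here carry the Wnt, Notch and Hedgehog pathways, which pass signals between neighbouring cells. Of the 21951 protein-coding genes annotated, 25 members belong to Wnt signalling, 11 to Notch signalling and 7 to Hedgehog signalling. A peak was counted for a member when its midpoint lay in the span of the gene on the same strand, which gave 124 of the 17068 peaks of the series. The members were named by their pathway, but they were chosen with earlier results of these data known. In Wnt signalling, secreted ligands bind Frizzled receptors and the Lrp5 and Lrp6 co-receptors, a complex built on Apc, Axin and Gsk3b stops destroying beta-catenin (Ctnnb1), and beta-catenin then acts with Tcf and Lef factors in the nucleus. In Notch signalling, Delta and Jagged ligands on one cell release the intracellular part of a Notch receptor on the next, which joins Rbpj and Mastermind (Maml) coactivators on DNA. In Hedgehog signalling, Patched (Ptch1) holds back Smoothened (Smo) until ligand arrives, and the pathway ends in the Gli transcription factors. Wnt signalling helps to maintain mouse embryonic stem cells in culture, and all the pathways act in the choice of cell fate in the embryo.

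The methylated base m6A (N6-methyladenosine) had been mapped in chromatin-associated RNA of untreated E14 cells, a mouse embryonic stem cell line grown with serum and LIF on gelatine. The 8 libraries were immunoprecipitated RNA and input for the SySy antibody and the same for the Abcam antibody, with 2 replicates in each of the 4 groups. The study's methods name a NEBNext Ultra II Directional kit for the SySy libraries and a TruSeq Stranded kit for the Abcam libraries. Antibody and library kit therefore cannot be told apart in comparisons between lists. Peaks had been called on the duplicates of each antibody together and sorted into 3 lists: Cfg1 with peaks of both antibodies, Cfg2 with SySy peaks whose Abcam signal was under the threshold, and Cfg3 with Abcam peaks alone. The study ranked these lists as high, medium and low confidence, in that order. Below, Cfg1 and Cfg2 together are named SySy-called. The lists give neither a depth nor a value per library, so depth is unknown and no error between replicates could be computed. Intervals in brackets are 95% Wilson intervals, which cover counting error only, and peaks of 1 gene or 1 call are not independent. All 6 stem cell genes looked for (Pou5f1, Sox2, Nanog, Klf4, Esrrb and Zfp42) held a peak and none of 5 fibroblast genes did, beside 25.1% of all protein-coding genes. A peak is a call of enrichment over input, and the lists cannot show that each one holds m6A. In a gene without a peak, they cannot tell a lack of expression from a lack of methylation.

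Members with at least 1 peak of any list numbered 29 of 43 (67.4%, 52.5 to 79.5%), beside 25.1% of all protein-coding genes. A Cfg1 peak was present in 17 members (39.5%) beside 12.1% of all genes, a Cfg2 peak in 22 members (51.2%) beside 13.7%, and a Cfg3 peak in 14 members (32.6%) beside 13.3%. The members are long genes: their median span was 46033 nt and their median transcript 5106 nt, beside 17403 nt and 2545 nt over all protein-coding genes. Among genes with any peak, the shares came closer together. Cfg1 peaks were present in 58.6% of the 29 members with a peak, beside 48.4% of the 5512 such genes overall. For Cfg2 the shares were 75.9% and 54.6%, and for Cfg3 48.3% and 52.8%. The part of gene length, or of the choice of members, in these shares was not tested.

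Wnt genes held 69 peaks in 15 of 25 genes, Notch genes 25 peaks in 8 of 11, and Hedgehog genes 30 peaks in 6 of 7. Split by list, the members held 36 Cfg1 peaks, 50 Cfg2 peaks and 38 Cfg3 peaks. Many neighbouring peaks were parts of 1 broader call: 63 of the 124 came from a call that had been split, and there were 88 calls in all. In 5 members, Apc, Lrp6, Bcl9l, Maml1 and Gli2, peaks of all 3 lists were present. In 3 members, Tcf7l1, Jag1 and Rbpj, the peaks were of Cfg3 alone. The 14 members without a peak were Axin2, Fzd1, Fzd2, Fzd4, Dvl1, Dvl3, Tcf7, Tcf7l2, Lef1, Rnf43, Hes1, Maml2, Maml3 and Sufu. Their median transcript was 3849 nt, beside 5612 nt in members with a peak.

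**Figure D1:**
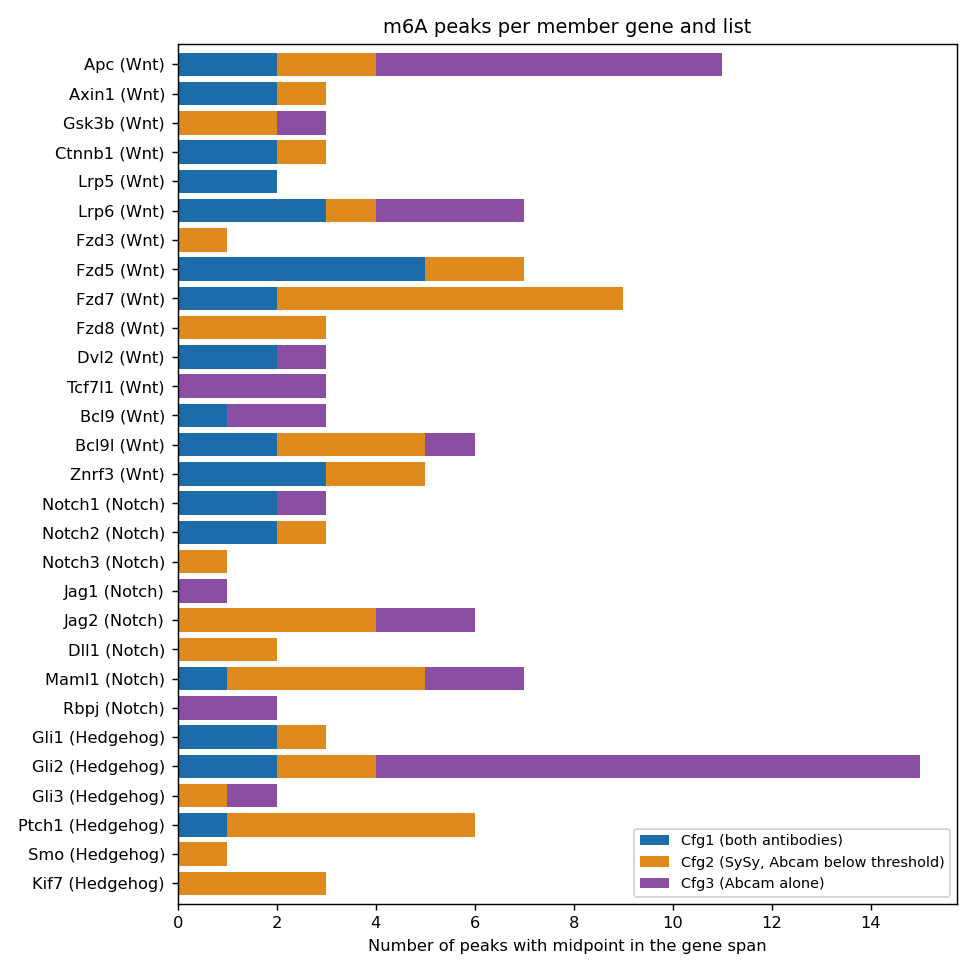
Number of peaks (horizontal axis) in each of the 29 members with at least 1 peak (vertical axis), coloured by list. Gli2 with 15 peaks and Apc with 11 held the most, mainly from Cfg3, whereas Fzd5 had 5 Cfg1 peaks and Fzd7 had 7 Cfg2 peaks.

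Among the Wnt receptors, most peaks were in Fzd5, Fzd7 and the co-receptor Lrp6. Frizzled genes encode membrane receptors for Wnt ligands. Fzd5 had 5 Cfg1 peaks, 2 Cfg2 peaks and no Cfg3 peak, and 159 protein-coding genes had at least 5 Cfg1 peaks. All 7 peaks of Fzd5 were in exon 2 of 2, an exon of 6296 nt. On the minus strand of mm10, the Cfg1 peak chr1:64736578-64736776 lay in the 5′ UTR, 77 nt before the start codon. The other Cfg1 peaks, chr1:64735614-64735863, chr1:64735281-64735526, chr1:64735036-64735279 and chr1:64734783-64735032, were parts of 1 call along the coding sequence, with midpoints 894, 559, 313 and 63 nt before the stop codon. None of the Fzd5 peaks held GGACT, the commonest form of the DRACH motif at which m6A is written. The Cfg2 peaks of Fzd5 (chr1:64730842-64730932 and chr1:64730756-64730840) lay 3958 and 4047 nt into the 3′ UTR.

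Fzd7, a gene of 1 exon, had 2 Cfg1 and 7 Cfg2 peaks, and 45 protein-coding genes had at least 7 Cfg2 peaks. Relative to its transcript length this was the densest member, with 1.99 SySy-called peaks per kb of transcript, beside 1.01 in Fzd5. Its 5′ UTR held 3 Cfg2 peaks of 1 call and its coding sequence 4 Cfg2 peaks of another, while the Cfg1 peaks lay 99 nt before and 242 nt after the stop codon. Fzd8 had 3 Cfg2 peaks, in its 5′ UTR, coding sequence and 3′ UTR, and Fzd3 had 1 Cfg2 peak in exon 2. No peak was found in Fzd1, Fzd2 or Fzd4.

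Lrp5 and Lrp6, single-pass co-receptors of Wnt ligands, had Cfg1 peaks in the same exons. In Lrp5 the 2 Cfg1 peaks lay in exon 2 (397 nt) and exon 6 (397 nt) of 23, and in Lrp6 Cfg1 peaks lay in exon 2 (394 nt) and exon 6 (397 nt) of 23. When the coding sequences were aligned through their proteins, which were 69.5% identical, the exon 2 peaks were 34 nt apart and the exon 6 peaks 64 nt apart. Lrp6 had further peaks that Lrp5 lacked: a Cfg2 peak in exon 3, a Cfg1 peak 28 nt after the stop codon, and Cfg3 peaks in exon 2, in the last exon and in intron 1. The exon 6 peaks are printed because they show what the paralogues share at the level of bases. Both were coding throughout, at chr19:3630097-3630346 in Lrp5 and chr6:134507398-134507597 in Lrp6 (mm10, minus strand). Capitals mark GGAC.
Lrp5: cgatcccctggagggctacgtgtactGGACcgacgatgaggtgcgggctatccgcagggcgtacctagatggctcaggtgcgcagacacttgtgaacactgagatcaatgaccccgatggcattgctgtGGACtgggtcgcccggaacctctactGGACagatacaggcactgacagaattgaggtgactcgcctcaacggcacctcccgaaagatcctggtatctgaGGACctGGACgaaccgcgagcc
Lrp6: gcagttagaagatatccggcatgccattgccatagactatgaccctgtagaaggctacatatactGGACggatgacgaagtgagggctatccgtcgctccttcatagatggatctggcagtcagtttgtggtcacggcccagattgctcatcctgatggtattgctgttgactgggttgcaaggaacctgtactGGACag
Of the 5 GGAC in the Lrp5 peak, 3 were also GGAC at the aligned position of Lrp6, and both GGAC of the Lrp6 peak were GGAC in Lrp5. The Lrp5 peak held 1 GGACT and the Lrp6 peak none.

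Within the destruction complex, exon 2 of Axin1, the scaffold of the complex, held all 3 of its peaks. Exon 2 is 959 nt long and the 3 peaks, a Cfg2 peak followed by 2 Cfg1 peaks, were parts of 1 call with midpoints 165, 353 and 595 nt after the start codon. The middle peak (chr17:26142923-26143151, plus strand, 229 nt, all coding) is printed as an example of a Cfg1 peak with 2 GGACT. Capitals mark GGAC.
Axin1: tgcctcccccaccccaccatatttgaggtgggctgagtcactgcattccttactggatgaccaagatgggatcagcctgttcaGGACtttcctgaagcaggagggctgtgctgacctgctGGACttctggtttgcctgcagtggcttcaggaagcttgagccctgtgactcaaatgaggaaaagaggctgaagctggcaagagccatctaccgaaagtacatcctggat
Axin2, its paralogue and a known target of Wnt signalling, had no peak. Apc, a scaffold that binds beta-catenin, had 11 peaks. Its last exon is 10548 nt long and held 2 Cfg1 peaks, 433 and 238 nt before the stop codon, each with 1 GGACT. The same exon held 5 Cfg3 peaks further upstream, from 6432 to 2363 nt before the stop codon, none of which had GGACT. In all, 82 protein-coding genes had at least as many Cfg3 peaks as the 7 of Apc, 2 of which lay in intron 1. Gsk3b, the kinase that marks beta-catenin for removal, had no peak in an exon of its representative transcript and 1 Cfg3 peak in its intron 1. Its 2 Cfg2 peaks lay 676 and 818 nt from the start of the gene, in the 5′ UTR of a longer transcript of 8303 nt.

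Beta-catenin itself, Ctnnb1, had Cfg1 peaks 55 nt before and 60 nt after its stop codon, from 1 call, and a Cfg2 peak in exon 6. The peak before the stop codon (chr9:120959415-120959505, plus strand, 91 nt, all coding) is printed as a coding peak just before a stop codon. Capitals mark GGAC.
Ctnnb1: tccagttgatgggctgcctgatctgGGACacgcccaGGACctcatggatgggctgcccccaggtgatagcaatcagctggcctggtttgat
It held 2 GGAC but no GGACT. Downstream of beta-catenin, Bcl9 and Bcl9l, adaptors that tie it to its coactivators, carried Cfg1 peaks in exon 8 of 10 (2239 nt in Bcl9 and 2287 nt in Bcl9l). Bcl9 had 1 Cfg1 and 2 Cfg3 peaks, and Bcl9l 2 Cfg1, 3 Cfg2 and 1 Cfg3 peaks. Znrf3, a ubiquitin ligase that removes Frizzled receptors, had 3 Cfg1 and 2 Cfg2 peaks, all in exon 8 (1698 nt), of which 4 held GGACT. Its paralogue Rnf43 had none. Dvl2, which relays the signal from Frizzled, had 2 Cfg1 peaks and 1 Cfg3 peak. They lay from 1361 to 2223 nt after the stop codon of the representative transcript (5037 nt), and outside the exons of a transcript of 2968 nt whose coding sequence has the same length. Among the Tcf and Lef factors only Tcf7l1 had peaks, and these were intronic.

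Of the Notch receptors, Notch1 had 2 Cfg1 peaks and 1 Cfg3 peak, Notch2 2 Cfg1 peaks and 1 Cfg2 peak, and Notch3 1 Cfg2 peak. All 7 lay in the last exon. In Notch1 (minus strand) the Cfg1 peak chr2:26460401-26460650 lay in the coding sequence, 993 nt before the stop codon, the Cfg3 peak chr2:26459628-26459779 lay 171 nt before it, and the Cfg1 peak chr2:26458514-26458738 lay 907 nt after it. The last of these held 3 GGACT, the most of any member peak. Each is given with 10 nt on either side, at chr2:26458709-26458733, chr2:26458653-26458677 and chr2:26458588-26458612, with GGACT in capitals.
Notch1 site 1: aacactgcctGGACTgttctgtgca
Notch1 site 2: gaggacagacGGACTgtcccggcct
Notch1 site 3: tgtgcattgtGGACTcgccagagta
In Notch2 (plus strand) all peaks were in the 3′ UTR: the Cfg1 peak chr3:98147756-98147942 lay 407 nt after the stop codon with 1 GGACT, the Cfg1 peak chr3:98148437-98148686 lay 1120 nt after it with 1 GGACT, and the Cfg2 peak chr3:98148756-98148935 lay 1404 nt after it with none.

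The Notch3 peak (chr17:32122324-32122573, minus strand) lay 627 nt before the stop codon. On the Notch1 coding sequence its midpoint fell 12 nt from that of the coding Notch1 peak, between proteins that were 55.9% identical. In the other direction, the midpoint of the Notch1 peak had no aligned position in Notch3. Both peaks were coding throughout and are printed to show this stretch, with GGAC in capitals.
Notch3: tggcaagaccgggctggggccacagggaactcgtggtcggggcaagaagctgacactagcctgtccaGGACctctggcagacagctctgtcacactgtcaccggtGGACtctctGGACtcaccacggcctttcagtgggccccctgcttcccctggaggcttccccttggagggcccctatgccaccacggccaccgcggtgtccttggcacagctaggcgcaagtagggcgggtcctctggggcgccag
Notch1: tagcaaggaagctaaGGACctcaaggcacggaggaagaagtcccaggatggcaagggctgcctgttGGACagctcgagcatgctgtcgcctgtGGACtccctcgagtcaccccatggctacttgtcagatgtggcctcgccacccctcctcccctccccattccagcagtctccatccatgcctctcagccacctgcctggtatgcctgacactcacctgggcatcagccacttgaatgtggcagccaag
Of the 3 GGAC in the Notch3 peak, 1 was also GGAC at the aligned position of Notch1.

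Among the Notch ligands, Jag2 had 4 Cfg2 and 2 Cfg3 peaks, Dll1 2 Cfg2 peaks, and Jag1 1 Cfg3 peak, 137 nt before its stop codon. The Cfg2 peaks of Jag2 (minus strand) were in the last exon: chr12:112908978-112909125 lay 161 nt before the stop codon, and chr12:112908711-112908867, chr12:112908341-112908456 and chr12:112908223-112908339 lay 102, 492 and 610 nt after it. The first and the third of these held 1 GGACT each. Both Cfg3 peaks of Jag2 (chr12:112919471-112919624 and chr12:112919337-112919469) were parts of 1 call in intron 5, in an intron of 3132 nt whose 5′ splice site was 524 and 669 nt away. Neither held GGACT. Maml1, a coactivator of the Notch complex, had 1 Cfg1, 4 Cfg2 and 2 Cfg3 peaks. Exon 2 (1416 nt) held the Cfg1 peak and 2 Cfg2 peaks, and 1 call gave Cfg2 peaks 30 nt before and 68 nt after the stop codon. Maml2 and Maml3 had no peak, nor did Hes1, a direct target of Notch.

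In the Hedgehog pathway, the transcription factors Gli1, Gli2 and Gli3 all had SySy-called peaks in the coding part of their last exon. Gli1, an activator that is itself a target of the pathway, had 2 Cfg1 peaks and 1 Cfg2 peak, at 1158, 162 and 988 nt before the stop codon. Gli3, the main repressor form, had 1 Cfg2 and 1 Cfg3 peak, at 1267 and 656 nt before it. Gli2 had 1 Cfg2 peak there, at 1373 nt before it. Placed on the coding sequence of Gli3, the Cfg2 peak of Gli1 fell 6 nt and the Cfg2 peak of Gli2 91 nt from the Gli3 peak, and the nearer Cfg1 peak of Gli1 fell 182 nt from it. The proteins were 43.9% identical between Gli1 and Gli3 and 52.5% between Gli2 and Gli3 over the aligned residues. The Cfg1 peak of Gli1 that fell 73 nt from the Gli2 peak on the Gli2 sequence is printed with the Cfg2 peaks of Gli2 and Gli3, all coding throughout: chr10:127331108-127331306 on the minus strand for Gli1, chr1:118837058-118837262 on the minus strand for Gli2 and chr13:15725387-15725636 on the plus strand for Gli3. Capitals mark GGAC.
Gli1: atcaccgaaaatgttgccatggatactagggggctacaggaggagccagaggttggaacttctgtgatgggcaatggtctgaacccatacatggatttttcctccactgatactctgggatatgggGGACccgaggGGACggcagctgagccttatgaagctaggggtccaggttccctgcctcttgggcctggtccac
Gli2: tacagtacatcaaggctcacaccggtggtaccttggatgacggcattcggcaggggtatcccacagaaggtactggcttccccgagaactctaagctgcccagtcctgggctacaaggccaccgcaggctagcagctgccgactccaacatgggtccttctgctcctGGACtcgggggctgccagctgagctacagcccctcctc
Gli3: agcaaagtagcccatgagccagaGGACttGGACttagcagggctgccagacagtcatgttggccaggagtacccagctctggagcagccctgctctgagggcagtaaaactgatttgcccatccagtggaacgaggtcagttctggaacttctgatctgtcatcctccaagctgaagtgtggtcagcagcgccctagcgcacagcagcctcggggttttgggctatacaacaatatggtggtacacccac
None of the GGAC of these 3 peaks was GGAC at the aligned position of either paralogue. The Gli2 peak held 1 GGACT, the Gli3 peak 2 and the Gli1 peak none.

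Across 6 families of paralogous members (Lrp, Bcl9, Gli, Notch, Frizzled and Jagged), 28 SySy-called coding peaks could be placed on a paralogue that also had one, and 20 of these fell within 200 nt of a peak of at least 1 paralogue. In the 27 placements within that distance, 45 GGAC were aligned and 10 of them were GGAC in the paralogue too. Lrp5 and Lrp6 gave 8 of 13 of these, and the other families together 2 of 32. Pairs were placed in both directions wherever a position aligned, so a GGAC can be counted more than once. These families were put together after the positions had been seen, and how often unrelated long exons would give such distances was not tested.

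**Figure D2:**
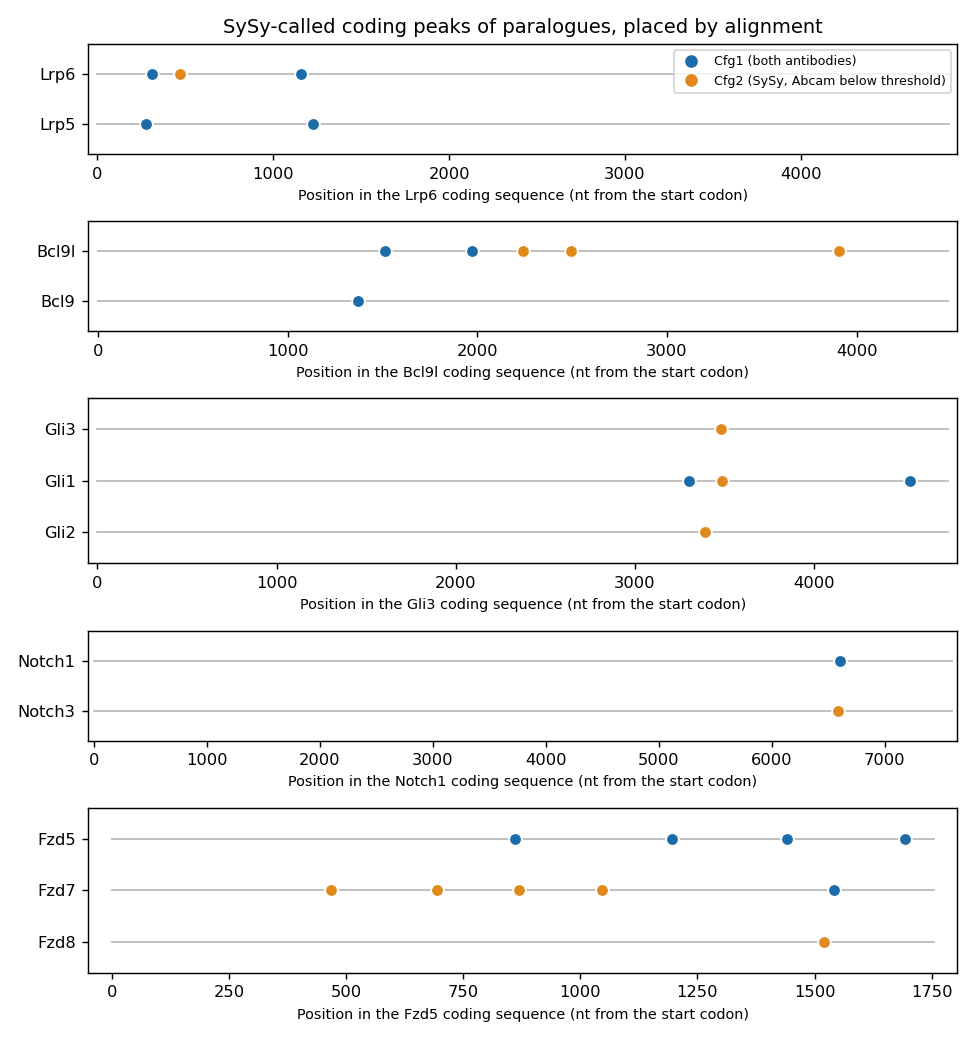
Midpoints of SySy-called coding peaks (points, coloured by list) of paralogous members, each panel on the coding sequence of its uppermost gene (horizontal axis, nt from the start codon). Peaks of Lrp5 and Lrp6 fell 34 and 64 nt apart, those of Notch3 and Notch1 12 nt apart, and Cfg2 peaks of Gli1 and Gli3 6 nt apart.

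Ptch1, the receptor of Hedgehog ligands, had 1 Cfg1 and 5 Cfg2 peaks. Exon 1 held 3 of the Cfg2 peaks and exon 2 another, and the last exon held the Cfg1 peak 305 nt and a Cfg2 peak 115 nt before the stop codon. Kif7, a kinesin that organises Gli proteins at the tip of the cilium, had 3 Cfg2 peaks of 1 call, 73 nt before and 99 and 250 nt after the stop codon. Sufu, which holds Gli proteins in the cytoplasm, had no peak. Smo had 1 peak, in Cfg2. It lay in intron 1 and was the only intronic SySy-called peak of the members. The same stretch is annotated as Gm13717, a processed pseudogene on the same strand, so its reads cannot be assigned to Smo alone. The peak (chr6:29750829-29750973, plus strand) is printed for this reason, and it held no GGAC.
Smo: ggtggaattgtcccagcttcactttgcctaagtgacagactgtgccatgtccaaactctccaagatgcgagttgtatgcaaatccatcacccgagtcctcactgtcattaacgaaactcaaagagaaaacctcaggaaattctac

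In the location of their peaks, the lists differed within the members. None of 36 Cfg1 peaks (0 to 9.64%) and 1 of 48 Cfg2 peaks (2.08%, 0.369 to 10.9%) were intronic, against 22 of 38 Cfg3 peaks (57.9%, 42.2 to 72.1%). Cfg1 minus Cfg3, the intron share differed by -57.9 percentage points (interval -72.1 to -39.5), with an adjusted p of 2.1e-08 in a two-sided Fisher's exact test. For Cfg2 minus Cfg3 it differed by -55.8 points (interval -70.2 to -37.8), with an adjusted p of 1.4e-08 in the exact test. Cfg1 minus Cfg2 came to -2.08 points (interval -10.9 to 7.71), where the exact test gave an adjusted p of 1. These tests counted every peak as independent. With 1 peak per gene, location and list, 0 of 17 Cfg1, 1 of 21 Cfg2 and 8 of 18 Cfg3 peaks were intronic. The differences from Cfg3 were then -44.4 points for Cfg1 and -39.7 points for Cfg2 (exact tests, adjusted p = 0.013 for each). The 18 Cfg3 units came from 14 members, since a member with both locations counted for each, and members recurred between lists. These units were therefore not independent either. Over all protein-coding genes, the intron share by the same rule was 10.9% in Cfg1, 16.3% in Cfg2 and 58.8% in Cfg3. An intronic SySy-called peak was present in 1 of 43 members (2.33%, 0.412 to 12.1%) beside 2.7% of all protein-coding genes, and an intronic Cfg3 peak in 8 members (18.6%, 9.74 to 32.6%) beside 7.98%. Among genes with any peak, the share with an intronic SySy-called peak was 3.45% of members beside 10.7% of genes, and with an intronic Cfg3 peak 27.6% of members beside 31.8%.

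**Figure D3:**
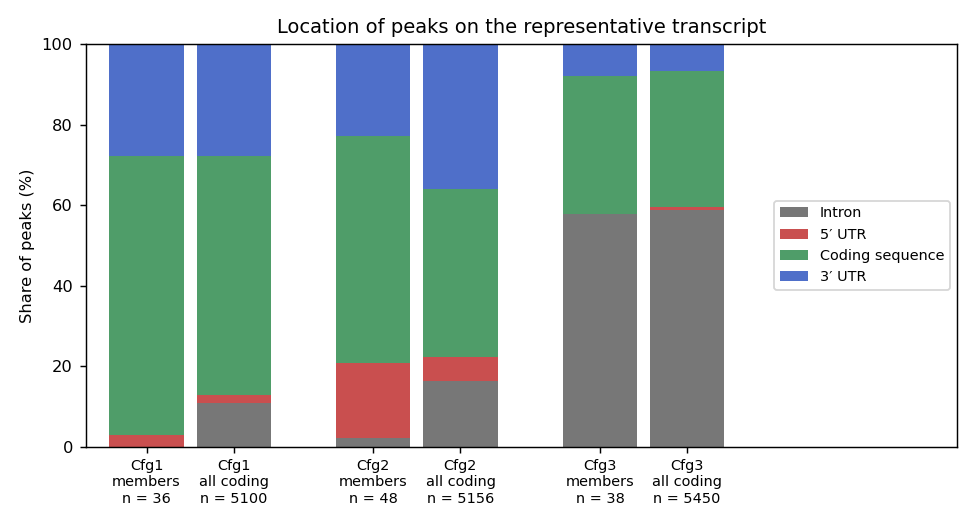
Stacked shares of peaks (vertical axis, %) in introns, 5′ UTRs, coding sequences and 3′ UTRs of the representative transcript, for members and for all protein-coding genes in each list. No Cfg1 peak and 1 Cfg2 peak of the members were intronic, against 57.9% of their Cfg3 peaks, while the Cfg3 bar of all protein-coding genes reached 58.8%.

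The exonic peaks lay mainly in long exons. Of 83 exonic SySy-called peaks, 52 were in the last exon (62.7%, 51.9 to 72.3%), beside 60.1% over all protein-coding genes. Another 25 were in internal exons, which were long: the 14 internal exons concerned had a median of 397 nt, beside 140 nt for the other 467 internal exons of the member transcripts. Counted once per peak, the median internal exon was 1416 nt in members, beside 956 nt over all protein-coding genes. Coding sequence held 62.7% of the exonic SySy-called peaks (52 of 83), 3′ UTRs 25.3% and 5′ UTRs 12%, beside 58.4%, 37.1% and 4.55% over all protein-coding genes. The 5′ UTR peaks were nearly all of Cfg2, with 9 of its 47 exonic peaks (19.1%, 10.4 to 32.5%) beside 7.21% over all protein-coding genes. They lay in Apc, Fzd7, Fzd8, Dll1, Gli2 and Ptch1 and had a GC content of 53.9 to 78% (median 71.2%), while the median over all member peaks of Cfg2 was 58.8%. Those of Fzd7 were parts of 1 call, as were those of Ptch1. According to the study, the antibody cannot tell m6A from the modification m6Am, and peaks close to transcript starts may be m6Am. Whether this holds for the 5′ UTR peaks of the members was not tested.

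Messenger RNA is known to carry much of its m6A around the stop codon. Here 14 of the 83 exonic SySy-called peaks (16.9%, 10.3 to 26.3%) had their midpoint within 200 nt of it in the spliced transcript, beside 23.8% over all protein-coding genes. They belonged to 10 genes. By list, the share was 16.7% in Cfg1 (6 of 36), 17% in Cfg2 (8 of 47) and 18.8% in Cfg3 (3 of 16, 6.59 to 43%). Over all protein-coding genes it was 24.4% in Cfg1, 23.1% in Cfg2 and 15.6% in Cfg3. The peaks nearest to the stop codon were that of Lrp6, 28 nt after it, and that of Maml1, 30 nt before it. The 3 Cfg3 peaks within the window were those of Lrp6, Notch1 and Jag1. Of the 15 exonic Cfg3 peaks in a member that also had a SySy-called peak, 8 lay within 1000 nt of one, with a median distance of 924 nt on the genome.

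**Figure D4:**
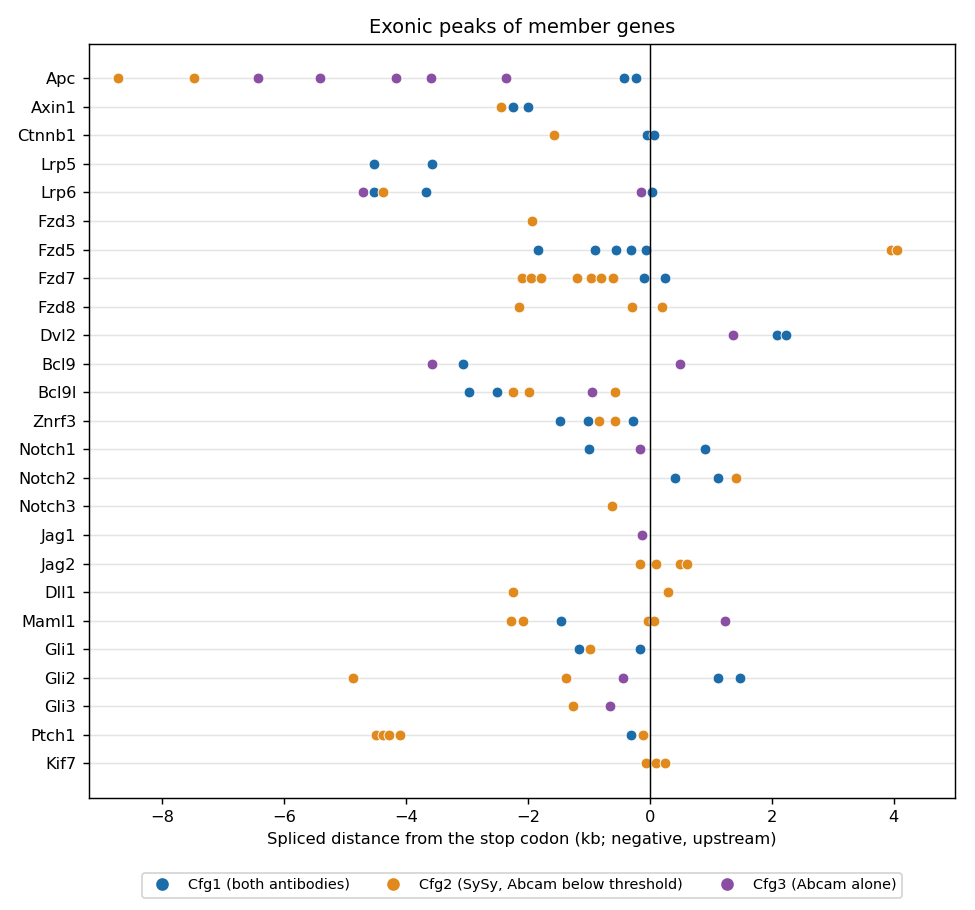
Spliced distance of each exonic peak midpoint from the stop codon (horizontal axis, kb, negative upstream) in the 25 members with such a peak (vertical axis), coloured by list. Peaks of Ctnnb1, Maml1 and Kif7 lie on both sides of the stop codon, those of Axin1 and Lrp5 only upstream, and those of Notch2 and Dvl2 only downstream.

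The GGACT motif was counted on the strand of the peak, overlapping matches included. It was present in 18 of 36 Cfg1 peaks of the members (50%, 34.5 to 65.5%), in 14 of 50 Cfg2 peaks (28%, 17.5 to 41.7%) and in 7 of 38 Cfg3 peaks (18.4%, 9.22 to 33.4%). Cfg1 exceeded Cfg3 by 31.6 points (interval 9.99 to 49.6), with an adjusted p of 0.013 in the exact test. Neither the 22 points from Cfg1 to Cfg2 (interval 1.32 to 40.8, exact test, adjusted p = 0.067) nor the 9.58 points from Cfg2 to Cfg3 (interval -8.74 to 26.1, exact test, adjusted p = 0.39) passed the threshold of 0.05. Over all protein-coding genes the shares were 37.8% in Cfg1, 32.4% in Cfg2 and 17.7% in Cfg3. Member peaks of Cfg1 were all exonic, whereas those of Cfg3 were mostly intronic. In exons alone, GGACT was present in 18 of 36 Cfg1 (50%) and 4 of 16 Cfg3 member peaks (25%, 10.2 to 49.5%). The exonic shares over all protein-coding genes were 37.8% and 18.1%, and these exonic differences were not tested. The peaks of the members were wider in Cfg1, with a median of 236.5 nt against 141 nt in Cfg3, and when GGACT was required within 50 nt of the midpoint the difference between Cfg1 and Cfg3 was 17.5 points (Fisher's exact test, adjusted p = 0.21). Without Gli2 it was 21.1 points, and with 1 peak for each gene and list 18.5 points (exact tests, adjusted p = 0.17 and 0.76). The shorter GGAC was found in 86.1% of Cfg1, 68% of Cfg2 and 55.3% of Cfg3 peaks, and DRACH in 100%, 94% and 86.8%, while over all protein-coding genes GGAC was found in 75.6%, 63.6% and 50.9% and DRACH in 99.3%, 96.9% and 93%.

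The 22 intronic Cfg3 peaks lay in 10 introns of 8 members, namely Apc, Gsk3b, Lrp6, Tcf7l1, Jag2, Maml1, Rbpj and Gli2. These introns were from 1325 to 139007 nt long, and the median over the peaks was 51095 nt, beside 12592 nt over all protein-coding genes. The median counts an intron once for each peak, and 51095 nt is intron 1 of Gli2, which held 6 of the 22 peaks. Intron 1 held 13 of the 22 peaks (59.1%, 38.7 to 76.7%), 6 of them in Gli2, beside 33.9% over all genes. In the first 25% of the intron lay 6 (27.3%, 13.2 to 48.2%), beside 29.1%, and no peak was within 500 nt of a 5′ splice site, the nearest being the Jag2 peak at 524 nt. Only 1, in Rbpj, was exonic in another annotated transcript of its gene (4.55%), beside 6.58%. The 17 of these peaks in a member with a SySy-called peak all lay over 1000 nt from it, and the nearest pair was 4174 nt apart.

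Tcf7l1, a repressor of Wnt targets in embryonic stem cells, had 3 Cfg3 peaks, all in intron 3 of 139007 nt and on the minus strand, and none of another list. The peaks chr6:72777555-72777713, chr6:72737529-72737689 and chr6:72699903-72700026 lay 10577, 50602 and 88246 nt from the 5′ splice site. Only the first held GGACT, and 67.3% of its bases were soft-masked as repeats in the assembly. It is printed to show that GGACT, which lies near its 5′ end. Capitals mark GGAC.
Tcf7l1: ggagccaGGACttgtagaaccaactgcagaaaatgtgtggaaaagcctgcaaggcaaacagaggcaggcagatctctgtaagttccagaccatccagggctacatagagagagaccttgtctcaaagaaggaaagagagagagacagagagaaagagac

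Gli2 had 11 Cfg3 peaks, and 17 protein-coding genes had at least as many. Of its 10 intronic peaks (minus strand), 6 lay in intron 1 (51095 nt), 3 in intron 2 (111638 nt) and 1 in intron 12 (1325 nt). In intron 1, a call split into chr1:119046652-119046787 and chr1:119046547-119046650 lay 6582 and 6703 nt from the 5′ splice site, each with 1 GGAC and 3 DRACH matches. The other peaks of intron 1, chr1:119039808-119039951, chr1:119039420-119039628, chr1:119039276-119039418 and chr1:119039161-119039274, followed one another over 791 nt and held no DRACH match at all. They made up 4 of the 5 intronic Cfg3 peaks of the members without DRACH, while 91% of the intronic Cfg3 peaks of all protein-coding genes held one. The longest of the 4 and its neighbour downstream were soft-masked over 100% of their bases. The sequence of that neighbour (143 nt) is printed because it consists largely of the repeated unit ATCC. It is all in lower case, since no GGAC occurs.
Gli2: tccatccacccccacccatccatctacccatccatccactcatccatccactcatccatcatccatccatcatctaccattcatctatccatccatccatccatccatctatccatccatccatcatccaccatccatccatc
ATCC matches covered 55.9% of the bases of this peak, 47.8% of the peak upstream of it and 31.6% of the peak downstream of it. The series held 6313 Cfg3 peaks that could be read from the assembly, those of Gli2 included. Of these, 1 had at least 50% of its bases in ATCC, which was the printed peak. At least 30% was reached by 6, among them the printed peak and those upstream and downstream of it. In intron 2 the peaks chr1:118952412-118952579, chr1:118945919-118946166 and chr1:118904641-118904890 lay 49544, 55997 and 97274 nt from the 5′ splice site, with 4, 1 and 5 DRACH matches. The peak of intron 12, chr1:118841265-118841403, had 2. None of the 10 intronic peaks held GGACT.

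The exonic peaks of Gli2 were distinct from these. The Cfg2 peak chr1:119053457-119053566 lay in exon 1, 242 nt before the start codon, with 1 GGACT and a GC content of 70.9%. In the last exon (4046 nt), the Cfg2 peak printed above was followed by the Cfg3 peak chr1:118836157-118836314, 449 nt before the stop codon, and by Cfg1 peaks chr1:118834552-118834801 and chr1:118834205-118834416, 1110 and 1476 nt after it. Each of the 4 SySy-called peaks held 1 GGACT and none of the 11 Cfg3 peaks did.

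**Figure D5:**
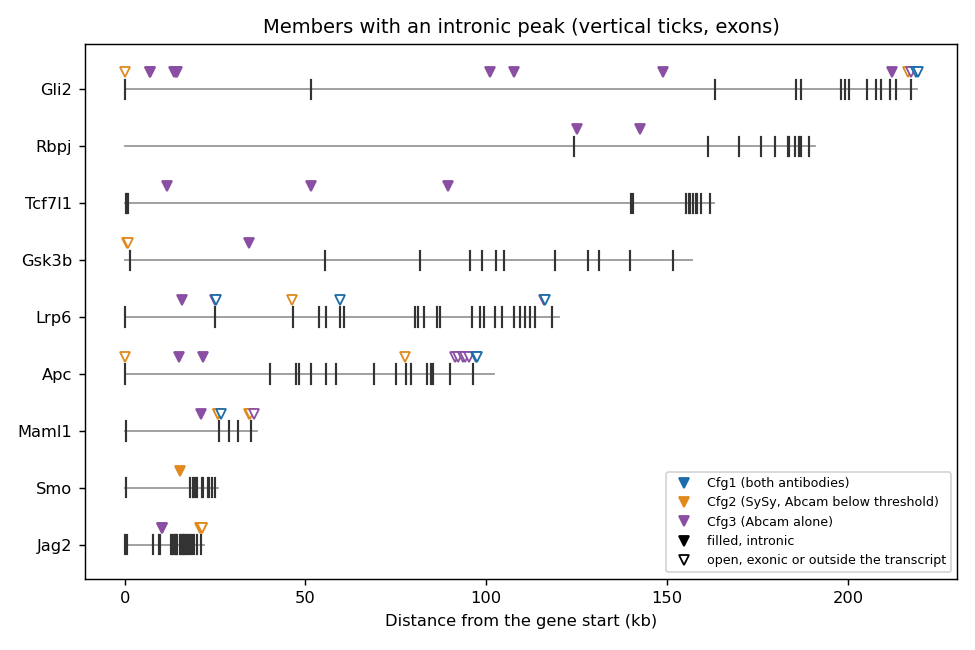
Distance of peaks (triangles, coloured by list) and exons (vertical ticks) from the gene start (horizontal axis, kb) in the 9 members with an intronic peak. Filled triangles are intronic: 22 of Cfg3 in 8 members and 1 of Cfg2 in Smo, with 10 of them in Gli2.

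Of 120 other genes of the pathways, 47 had a peak of any list (39.2%), beside 25.1% of all protein-coding genes: 18 of 57 Wnt genes, 19 of 38 Notch genes and 10 of 25 Hedgehog genes. Cfg1, Cfg2 and Cfg3 peaks were present in 23, 23 and 25 of them. Among these other genes, 1 of 25 for secreted or membrane ligands had a peak, Wnt6 with 1 Cfg2 peak. The 3 ligand genes among the members, Jag1, Jag2 and Dll1, all had peaks, that of Jag1 being 1 Cfg3 peak. Since the members were chosen with earlier results of these data known, their ligands cannot be set against the others. With at least 4 peaks, the Wnt list held Amer1 (8 Cfg1 and 3 Cfg2 peaks), an Apc-binding protein, the casein kinase gene Csnk1a1 (3 Cfg1, 4 Cfg2 and 1 Cfg3), the deubiquitinase gene Usp34 (5 Cfg1, 1 Cfg2 and 2 Cfg3), the Wnt receptor gene Ror2 (3 Cfg1, 2 Cfg2 and 2 Cfg3), the R-spondin receptor gene Lgr4 (3 Cfg1, 3 Cfg2 and 1 Cfg3) and the chromatin remodeller gene Chd8 (6 Cfg1 and 1 Cfg3). The Notch list held the ubiquitin ligase gene Fbxw7 (4 Cfg1 and 1 Cfg3), Pofut1 (3 Cfg2 and 2 Cfg3) and Poglut1 (2 Cfg1 and 2 Cfg3), which add sugars to Notch receptors. In the Hedgehog list the casein kinase gene Csnk1e had 3 Cfg1 and 5 Cfg2 peaks. Of its 8 SySy-called peaks, 7 were in introns of its representative transcript.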

How the data were processed

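The data are 3 deposited lists of stranded peak intervals. The submitters' processing notes name MACS2 2.1.1 and HOMER. According to the methods, peaks of each antibody had been called on both replicates together against input, then split between summits and trimmed, and the widest here was 250 nt. The deposited score was 0 for all 17068 peaks, so the lists give no height, depth or replicate error. In 1 entry the strand field held a stray second character, and its first character was used.

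Peaks were placed by midpoint on the transcript with the longest coding sequence of each gene (GENCODE mouse release 21, older than that of the study, on GRCm38.p6, the coordinates of mm10). Spliced from the assembly, 43 of 43 member transcripts matched the GENCODE sequence. Placement was tested on planted positions, of which 400 of 400 were recovered. The peaks of all 21951 protein-coding genes were treated alike, and 1 peak may count for several genes. Lists were compared by the shares of their member peaks (Fisher's exact test, two-sided, 6 tests adjusted together after Benjamini and Hochberg), and intervals of differences were built from the Wilson intervals. Paralogues were aligned globally as proteins (BLOSUM62).

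Positions are given in full for the members with the most Cfg1 or the most intronic peaks in each pathway, with ties settled by total peaks. Other members have their counts, and other pathway genes are named from 4 peaks, except for an item that is not reported here. The members and lists were chosen with earlier results of these data known, and the paralogue families, the printed peaks, and the leaving out of Gli2 or of split calls after seeing the positions. The tools were Biopython 1.88, pysam 0.24.0, scipy 1.17.1, numpy 2.4.6 and matplotlib 3.10.9 under Python 3.11.15.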

Additional observations from a re-analysis of the deposited data

How the results depend on the processing

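Of 54 recomputed values for 17 results, 42 were classed as the same. These kept their direction and, where tested, their side of the threshold, though some changed in size. Of the rest, 5 no longer passed the threshold, 2 changed direction, and 5 values without a test were classed as moved in size. The intron share differences between Cfg1 or Cfg2 and Cfg3 stayed past the threshold with the longest transcript, with any annotated exon, with any exonic base, with 1 peak per gene, location and list, and, chosen after seeing the data, without Gli2 or with 1 peak per call. The GGACT difference between Cfg1 and Cfg3 was 17.5 points within 50 nt of the midpoint, 13.2 points for DRACH, 18.5 points with 1 peak per gene and list, 21.1 points without Gli2 and 29.4 points with 1 peak per call, none of which passed the threshold (adjusted p from 0.053 to 0.76 by Fisher's exact test). With GGAC in place of GGACT it was 30.8 points and passed (exact test, adjusted p = 0.01). The cause was not tested. Without Gli2 the GGACT difference between Cfg2 and Cfg3 was -0.926 points, in place of 9.58. Among genes with a peak of any list, members exceeded all genes by 10.2 points in Cfg1 and 21.3 points in Cfg2 and stood at -4.52 points in Cfg3, in place of 27.4, 37.5 and 19.3 points over all protein-coding genes. Within 100 nt of the stop codon lay 8.51% of exonic Cfg2 and 0% of exonic Cfg3 peaks, and 0% of intronic Cfg3 peaks had a 5′ splice site within 500 nt. No paired analysis was possible because the lists were called on both replicates together, and for the same reason no replicate could be left out. A stricter threshold could not be set, since every score is 0.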
